A study of Mus musculus with 33 samples.

Results

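The difference between the medulla and the cortex of the mouse thymus was compared between dissected tissue and sorted thymocytes, to find genes whose compartment difference in tissue goes beyond that of the lymphoid cells, and the reverse. For each gene the quantity was (whole medulla minus whole cortex) minus (sorted medullary minus sorted cortical thymocytes) on the log2 scale, called the interaction here. The groups follow the array titles and all 45037 probe sets were fitted. The comparison uses 24 of the 33 arrays of the series: 7 of microdissected whole cortex, 7 of microdissected whole medulla, 5 of sorted cortical thymocytes and 5 of sorted medullary thymocytes. The other 9 arrays (3 each of sub-capsular, central and peri-medullary cortex) entered the fit only through the shared estimate of the spread, and they gave a separate readout. Every group is labelled as male C57BL/6J mice aged 4 to 6 weeks (the 9 subregion arrays go against that sex, as described below), with no treatment and no altered gene named. Cortical thymocytes were sorted as CD45+ cells with no or low CD3 that carried CD90 or CD117, and medullary thymocytes as CD45+ cells with high CD3. Each tissue sample therefore holds thymocytes together with epithelium, mesenchyme, vessels and antigen-presenting cells, and the sorted samples hold cells chosen by lymphoid markers, with maturity read from CD3 and not from position. RNA of tissue and of sorted cells was isolated with different kits, so the kit and the kind of sample cannot be told apart. Replicates are called biological in the titles, but no label ties arrays to animals, so the p-values measure the spread between these samples.

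The thymus makes T cells in 2 joined compartments. In the cortex, CD4-CD8- progenitors become CD4+CD8+ thymocytes, rearrange their receptor genes and are positively selected by cortical epithelial cells, which make unusual peptides through the thymoproteasome and the protease Prss16 and draw progenitors with Cxcl12 and Ccl25. In the medulla, mature CD4+ or CD8+ thymocytes are screened against self: medullary epithelial cells express genes of other tissues, many of them through Aire, and dendritic cells and B cells present antigen beside them. In bulk samples, fewer cells of a type and less RNA per cell cannot be told apart.

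The thymocyte markers were present on the sorted arrays, and epithelial markers were at the weak end of the signal there. The T cell receptor component Cd3e gave a signal of 7326 ± 663 on sorted cortical and 9065 ± 2765 on sorted medullary arrays. Cd90 (Thy1) gave 25713 ± 1762 and 12412 ± 1982, and CD117 (Kit) gave 134 ± 33.9 and 256 ± 52.7. Kit was thus higher on sorted medullary arrays, although CD117 was part of the cortical sort. Here and below, levels are array signals as mean ± SD over 7 arrays for a tissue group and 5 for a sorted group. The cortical thymoproteasome subunit Psmb11 was at 13.9 ± 13.8 and 17.7 ± 19.2 on the sorted arrays, and Aire at 9.86 ± 1.65 and 40.7 ± 36.5. Among the 24 arrays, median signals ranged over 71.9 to 163. Weak signals were brighter on whole medulla arrays, whose 25th percentile lay between 37.5 and 53.4, against 17.8 to 35.1 in the other 3 groups. The brightest signals were compressed on the sorted cortical arrays, whose 99.9th percentile lay between 26209 and 27818, whereas 13 arrays of the other 3 groups passed 42000. The part of these shifts in single results was not tested beyond the alternative settings given below. On the 9 subregion arrays, Xist, a transcript of the inactive X chromosome, gave a signal of 9195 to 13202, against 22.1 to 231 on the 24 arrays compared. This goes against their label as male.

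Far more genes exceeded the thymocyte difference toward the medulla than toward the cortex. Of 18193 genes, 1732 had a called interaction that was higher (9.52%) and 294 one that was lower (1.62%). A gene was called at a Benjamini-Hochberg adjusted p below 0.05 in limma with an absolute log2 difference of at least 1. The median interaction over all genes was 0.02. In 5 equal groups of genes by mean signal, from weakest to brightest, 323, 622, 560, 165 and 62 were called higher. In the same order 24, 54, 76, 57 and 83 were called lower, so the brightest group did not share the excess toward the medulla. In tissue, 2738 genes (15%) were called higher in the medulla and 726 (3.99%) higher in the cortex. In sorted thymocytes, 1052 (5.78%) were called higher in medullary and 839 (4.61%) higher in cortical cells. Of the 2738 genes higher in medullary tissue, 1391 (50.8%) also had a higher interaction, 71 (2.59%) a lower one, and 1276 (46.6%) no called interaction. Of the 726 genes higher in cortical tissue, only 70 (9.64%) had a lower interaction, and 622 (85.7%) had no called interaction. Of these 622, 439 were also called higher in sorted cortical thymocytes.

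The called genes were sorted into patterns by the 2 component differences, which is a description of the same fit. In 1032 genes, named tissue-side medullary here, the medulla was called higher in tissue, and the thymocyte difference was not called and had a 95% interval within 1 log2 unit of 0. The matching tissue-side cortical pattern held 53 genes. A thymocyte difference with a small tissue difference was found for 117 genes higher in cortical and 33 higher in medullary thymocytes. The differences pointed in opposite directions in 30 genes. They pointed the same way in 34 genes with the larger difference in tissue and in 105 with the larger one in thymocytes. The remaining 622 called genes fell in no pattern, since a difference was of middling size or neither was called alone. Most tissue-side medullary genes were weak in thymocytes: 783 of the 1032 (75.9%) lay below the array median on all 10 sorted arrays, against 33.5% of all genes. The pattern asks for a small thymocyte difference, and the offset added before log2 shrinks the differences of weak genes. This share is therefore partly set by the rule and is no separate result about these genes. Among genes with more than 1 probe set, 692 of 969 called ones had every probe set pointing the same way. With the offset added before log2 (26.2) cut to 0.25 of its size, the tissue-side medullary count was 334 and the opposite-direction count 56. The tissue-side cortical count was 87 after quantile normalization and 97 without the 13 arrays with a wide upper tail.

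**Figure D1:**
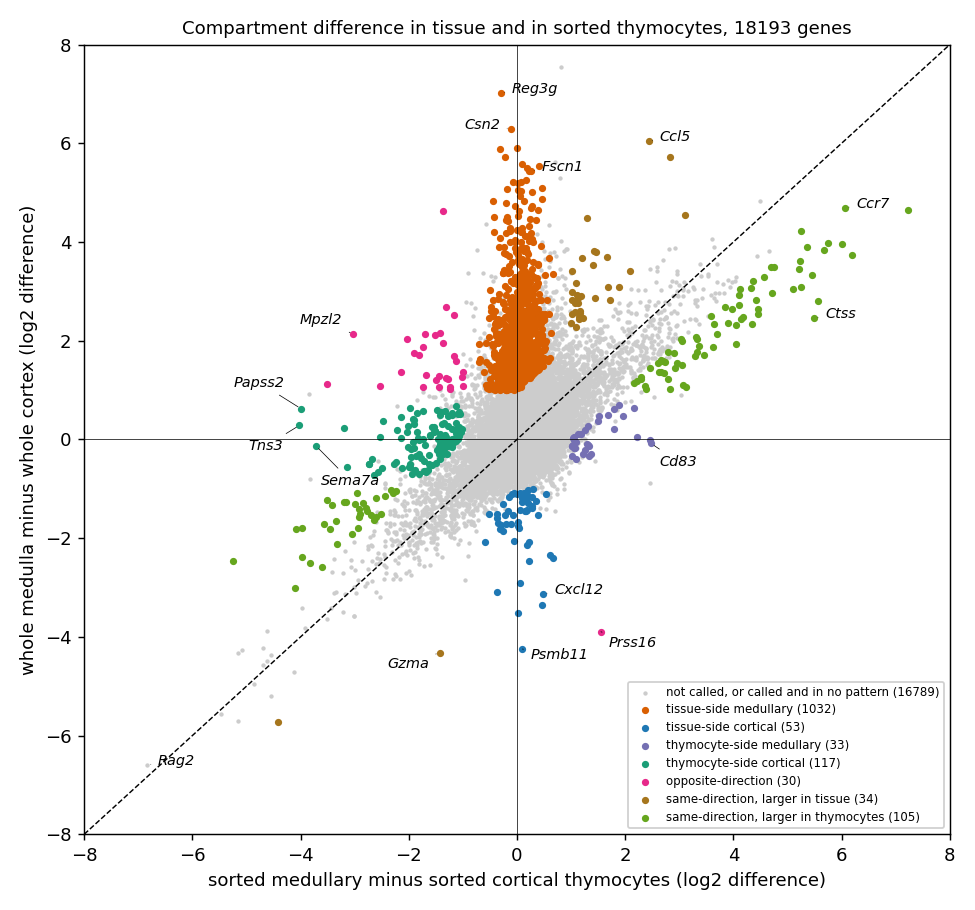
Compartment difference in sorted thymocytes (horizontal axis, log2) against that in dissected tissue (vertical axis, log2) for 18193 genes, 1 point per gene; colours give the pattern of called genes and the dashed line marks equal differences. The 1032 tissue-side medullary genes stand in a column above 0 with little thymocyte difference, and Rag2 lies on the line at the cortical end.

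The medullary epithelial genes led the excess of tissue. Of 13 measured genes of the medullary epithelial list, 12 were called higher (92.3%, against 9.52% of all genes), with a median interaction of 2.89. The list counts below also stand against 9.52% of all genes called higher and 1.62% called lower. The list's summed signal was 21104 to 24559.9 in medulla, 1874 to 2587 in cortex, 688 to 1000.2 in sorted cortical and 1093 to 1223 in sorted medullary cells. Aire, the regulator that opens tissue-restricted genes for expression in these cells, lay from 2092 to 2639 (median 2323) on the 7 whole medulla arrays and from 6.30 to 61.03 (median 10.8) on the 7 whole cortex arrays. Sorted cortical arrays gave 11.7, 8.26, 9.51, 11.5 and 8.38 for Aire, and sorted medullary arrays 73.3, 28.8, 85.2, 9.47 and 6.64. All 7 medulla values were above every other value, and the 3 other groups overlapped. The interaction of Aire was 4.92 ± 0.39 (SE; limma adjusted p = 4.97e-12). Fezf2, a transcription factor that drives other self-antigens, had an interaction of 4.40 ± 0.33, and Spib, an Ets-family factor, one of 4.57 ± 0.28. Aire and Spib lay in no pattern, since their thymocyte difference was not shown to be small.

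Of 9 measured keratins 5 were called higher (55.6%, against 9.52% of all genes) and 4 were not called. Krt5, a keratin of basal and medullary epithelium, lay from 5504 to 6917 (median 6035) in whole medulla and from 308 to 674 (median 414) in whole cortex. The sorted cortical values of Krt5 were 96.97, 89.6, 52.8, 152 and 78.01, and the sorted medullary ones 84.6, 158, 103, 98.01 and 104. The tissue groups did not overlap, and the sorted groups did. Krt5 had an interaction of 3.55 ± 0.23 (adjusted p = 2.46e-14), and Krt14, its partner, one of 4.69 ± 0.41. The simple-epithelium keratin Krt7 was called higher as well (2.07 ± 0.33), with 2243 ± 271 in medulla and 439 ± 58.2 in cortex. Krt8 and Krt18, a simple-epithelium pair that cortical epithelium makes too, were not called: Krt8 gave 8643 ± 1174 in cortex and 10325 ± 1059 in medulla, with an interaction of 0.14 ± 0.23 (adjusted p = 0.79). Krt18 gave 10904 ± 1536 and 8456 ± 702, with an interaction of -0.33 ± 0.17 (adjusted p = 0.211). Of 14 measured junction genes 9 (64.3%) were called higher, among them the tight-junction gene Cldn7 (4.52), the adhesion molecule Epcam (4.01) and E-cadherin, Cdh1 (3.03). Cornified-epithelium genes were called higher in 8 of 12, led by Dmkn (4.94), Krtdap (3.98) and the protease inhibitor Spink5 (3.66). Tuft cell genes were called higher in 4 of 10 (40.0%): Avil (2.39), Dclk1 (1.92), the taste-signalling channel Trpm5 (1.46) and Alox5 (1.45). Without the arrays with a wide upper tail, the calls of Trpm5 (0.80) and Alox5 (1.14) were lost, and that of Alox5 was lost in 3 of 11 alternative settings.

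The 3 highest interactions were those of Reg3g, Wfdc18 and Csn2, genes of gut and milk. Of 13 measured gut and liver genes 11 were called higher (median interaction 2.76). Reg3g, an antimicrobial lectin of the intestine, lay from 2893 to 5821 (median 5598) on whole medulla arrays and from 3.08 to 19.9 (median 10.2) on whole cortex arrays. On sorted cortical arrays Reg3g gave 38.2, 7.54, 22.3, 7.46 and 13.2, and on sorted medullary arrays 9.84, 10.6, 9.86, 3.48 and 9.51. Every medulla value was far above all 17 others, which overlapped near the weak end of the signal. Its interaction was 7.32 ± 0.32 (adjusted p = 1.34e-18). Csn2 codes for a casein, and Wfdc18 is a milk gene too: Csn2 gave 5491 ± 1967 in medulla against 46.2 ± 31.7 in cortex, and Wfdc18 15818 ± 2366 against 64.9 ± 38.9. Their interactions were 6.41 ± 0.41 and 6.73 ± 0.41. The other 6 of 8 measured milk genes were not called. Apolipoproteins Apoa4 (4.25) and Apoa1 (3.81) were called higher as well. Endocrine genes were called higher in 7 of 11, with neurotensin, Nts, at 3.54, peptide YY, Pyy, at 2.92 and glucagon, Gcg, at 2.22. Without the arrays with a wide upper tail, Pyy was not called (1.94). Of 10 measured muscle genes the sarcomere gene Ttn (2.73) and the factor Myog (1.65) were called higher (20%, against 9.52% of all genes), and the others were not called. Ttn was at -0.09 when its probe set was limited to those with a plain suffix. Outside the lists, the prostaglandin enzyme Ptgs2 (6.20), the photoreceptor cadherin Cdhr1 (5.94), the histamine-making enzyme Hdc (5.90), Clca3a2 (5.49) and the lipoxygenase Alox15 (4.94) stood among the highest interactions, Alox15 in no pattern. Probe sets for close paralogs, such as the Clca family, may share signal, so those values are uncertain.

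Promoters of 3 medulla-high genes are shown here for their TATA motif. The sequences are the 100 bases before the RefSeq transcription start (GRCm38.p6), 5′ to 3′ on the gene's strand, with the TATAAA motif in capitals. Wfdc18 lay in no pattern, and the others are tissue-side medullary. They are Reg3g at chr6:78468875-78468974 (minus strand), Wfdc18 at chr11:83708904-83709003 (plus strand) and Fscn1, a dendritic cell gene described below, at chr5:142960255-142960354 (plus strand).
Reg3g: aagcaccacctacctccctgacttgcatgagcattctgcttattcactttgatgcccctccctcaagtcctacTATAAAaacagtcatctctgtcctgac
Wfdc18: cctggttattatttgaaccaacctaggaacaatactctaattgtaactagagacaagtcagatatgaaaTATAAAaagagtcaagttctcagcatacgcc
Fscn1: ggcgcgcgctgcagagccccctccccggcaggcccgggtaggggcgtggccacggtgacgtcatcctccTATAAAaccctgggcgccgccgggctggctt
The motif begins 27 bases before the start in Reg3g and 31 bases before it in Wfdc18 and Fscn1. Reg3g and Wfdc18 held 1 and 2 CpG dinucleotides in the 300-base window from 250 bases before to 50 after the start, and Fscn1 held 21. A promoter was matched by symbol for 767 of the 1032 tissue-side medullary genes, and TATAAA lay between 50 and 10 bases before the start in 49 of them (6.39%). The share was 2.82% of the 14452 matched genes on the array and 2.64% of all 27025 promoters of the table. The same letters read on the other strand (TTTATA) were found in 1.30% of the tissue-side medullary and 0.630% of the matched promoters. These shares are descriptions of letters in a window.

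Antigen-presenting cells added a second block on the medullary side. Dendritic cell genes were called higher in 8 of 13, with a median interaction of 1.88. Fscn1, the actin-bundling protein of mature dendritic cells, lay from 17606 to 35781 (median 21711) on whole medulla arrays and from 391 to 594 (median 474) on whole cortex arrays. It gave 51.9, 31.8, 49.01, 72.8 and 21.5 on sorted cortical arrays and 60.8, 92.6, 51.8, 37.9 and 48.3 on sorted medullary arrays. Medulla stood above cortex, cortex stood above both sorted groups, and the sorted groups overlapped. The interaction was 5.19 ± 0.23 (adjusted p = 1.76e-18). The chemokines Ccl22 (5.26) and Ccl17 (3.78), which attract Ccr4-bearing thymocytes, and the cytokine subunit Il12b (3.80) were also called higher. B cell genes were called higher in 5 of 9 (55.6%), among them Ms4a1, which codes for CD20 (3.16), Cd79a (3.14) and the complement receptor Cr2 (2.35). Macrophage genes split: 3 of 18 (16.7%) were called higher and 4 (22.2%) lower, against 9.52% and 1.62% of all genes. The median of the list was -0.21. The higher ones were the lysozyme gene Lyz2 (3.07) and the complement genes C1qa (1.35) and C1qb (1.58). The lower ones were the iron exporter Slc40a1 (-2.96), the haemoglobin scavenger Cd163 (-2.29), the mannose receptor Mrc1 (-1.12) and the factor Spic (-1.05). The call of Spic was lost in 6 of 10 alternative settings and without any 1 of 8 single arrays, and that of Mrc1 with the smaller offset (-0.99) and without sorted medullary array 4 (-0.95). Slc40a1 gave 1581 ± 340.3 in cortex against 286 ± 36.2 in medulla.

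MHC class II genes were high in medullary tissue, and their processing genes differed. H2-Ab1, the beta chain of I-A, lay from 16808 to 21882 (median 17865) in whole medulla and from 2277 to 4164 (median 3384) in whole cortex. The sorted groups gave 185 ± 49.7 and 127 ± 52.5, and overlapped. The interaction of H2-Ab1 was 2.97 ± 0.23, and that of H2-Eb1 2.80 ± 0.23. Of 10 measured genes of the pathway 4 were called higher and 1, Ctss, lower. Cd74, the invariant chain, was called higher in both components, with differences of 2.65 in tissue and 1.81 in thymocytes, and its interaction of 0.83 ± 0.22 stayed under the size limit. Costimulation genes were called higher in 6 of 10, led by the ligands Cd70 (3.02) and Icosl (2.97) and the receptor Cd40 (2.45). Chemokines were called higher in 10 of 17 and lower in 3. The Cxcr3 ligand Cxcl9 (5.17) and the Ccr6 ligand Ccl20 (4.12) lay on the medullary side. The lower ones were Cxcl12, Ccl25 and the lymphocyte-made Xcl1 (-1.60). Immediate-early genes, which respond within minutes to stimulation or handling, were called higher in 5 of 18 (27.8%, against 9.52% of all genes). Among them Atf3 was at 2.13, Klf6 at 2.10 and Jun at 1.90. Egr2, a target of receptor signalling in thymocytes, was the 1 called lower (-1.19). Whether handling moved with the tissue groups was not tested.

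Mesenchymal genes were a further block. Pericyte and smooth muscle genes were called higher in 7 of 12 (median 1.67), and their summed signal was 22946 to 27548 in medulla, 2241 to 4096 in cortex, 1649.7 to 2049 in sorted cortical and 689 to 1093 in sorted medullary cells. Rgs5, a regulator of G-protein signalling that marks pericytes, lay from 9811 to 12079 (median 11537) in whole medulla and from 462 to 852 (median 550.2) in whole cortex. It gave 26.6, 28.3, 23.5, 23.6 and 38.3 on sorted cortical arrays and 48.99, 4.42, 22.01, 8.24 and 1.17 on sorted medullary arrays. Medulla and cortex did not overlap, and all 10 sorted values were below both. The interaction of Rgs5 was 4.64 ± 0.24 (adjusted p = 1.13e-16), and the contractile genes Tagln (3.94), Acta2 (2.76) and Tpm2 (4.24) were called higher too. With plain-suffix probe sets Tpm2 was at 0.05 and Acta2 at -0.90. Fibroblast and matrix genes were called higher in 8 of 16, with collagen VI, Col6a1, at 3.52, the calcification inhibitor Mgp at 3.31 and periostin, Postn, at 3.08. Endothelial genes were called higher in 4 of 15 (26.7%, against 9.52% of all genes): Vwf (2.63), Esam (1.79), Plvap (1.59) and the VEGF receptor Flt1 (1.33). The call of Flt1 was lost in 5 of 11 alternative settings, quantile normalization among them (1.15), and without any 1 of 12 single arrays. The fat-cell and vessel gene Fabp4 was called higher (1.47), but not with plain-suffix probe sets (0.56).

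**Figure D2:**
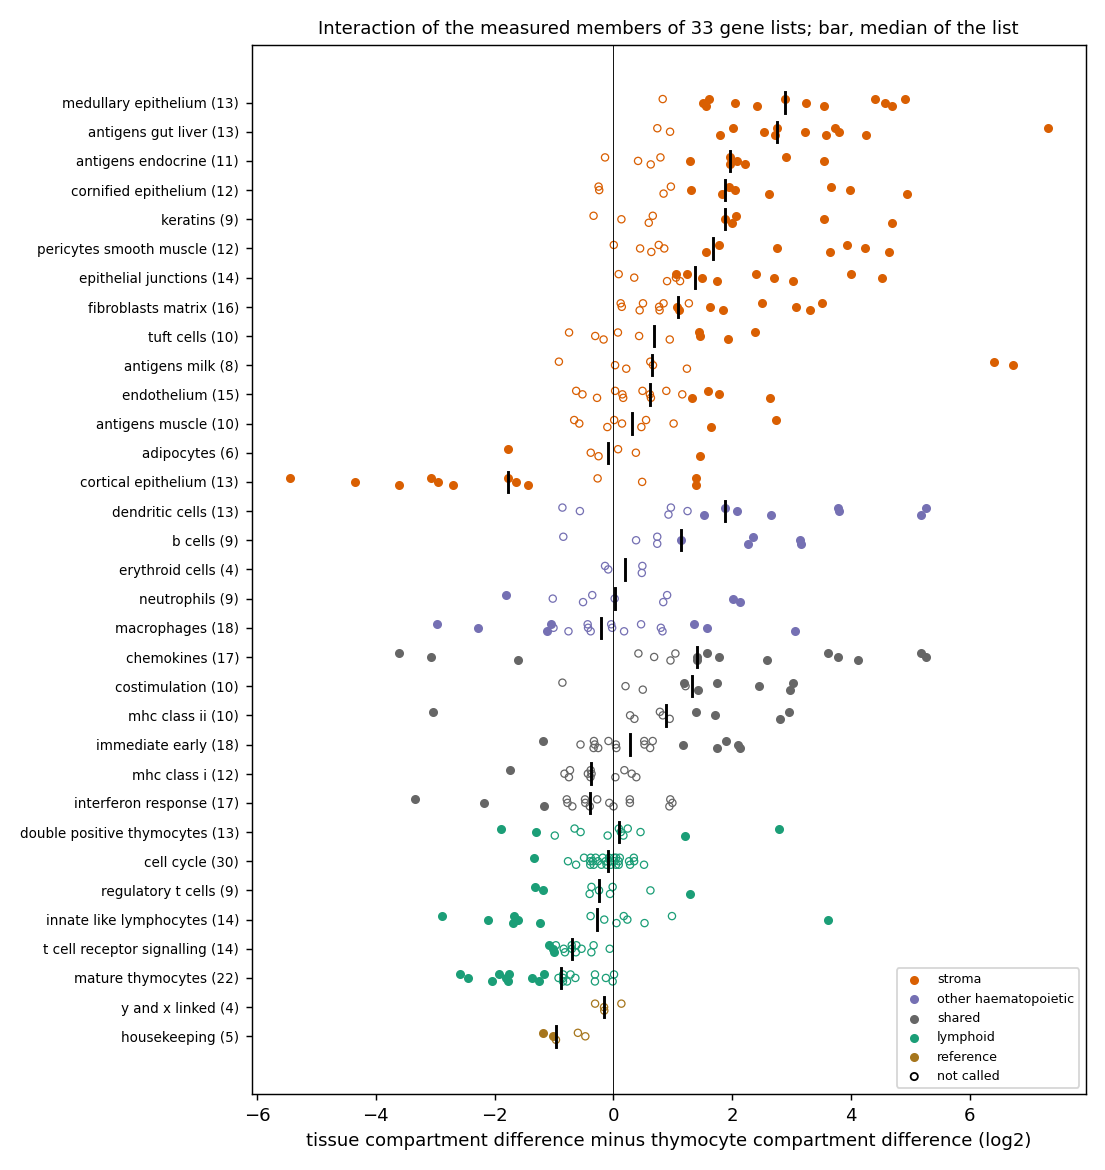
Interaction (log2) of every measured member of 33 gene lists, 1 point per gene, filled where called; the bar is the list's median and the number in brackets its measured members. Medullary epithelial (median 2.89) and gut and liver genes (2.76) lie farthest to the right, and cortical epithelial genes (-1.77) farthest to the left.

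On the cortical side, the tissue-side pattern held 53 genes, and 6 of them were on the cortical epithelial list. Of 13 measured genes of that list 9 were called lower and 2 higher, with a median interaction of -1.77. The list's summed signal was 83392 to 110039 in cortex, 20886 to 28341 in medulla, 6573 to 7217 in sorted cortical and 1452 to 2642 in sorted medullary cells. Psmb11, the catalytic thymoproteasome subunit, lay from 1828 to 3325 (median 2759) in whole cortex and from 88.3 to 151 (median 124) in whole medulla. Sorted cortical arrays gave 26.02, 3.84, 4.00, 4.03 and 31.6, and sorted medullary arrays 7.93, 4.53, 21.4, 49.7 and 4.88. Cortex stood above medulla and medulla above all 10 sorted values. The interaction was -4.35 ± 0.28 (adjusted p = 1.88e-14). Cxcl12, which attracts Cxcr4-bearing progenitors, lay from 7388 to 8575 (median 7905) in whole cortex and from 752 to 1108 (median 931) in whole medulla. Its sorted cortical values were 19.2, 3.85, 40.4, 28.7 and 7.22, and its sorted medullary values 35.3, 33.3, 61.5, 15.8 and 40.7. The order of the groups was that of Psmb11, and the interaction was -3.61 ± 0.21 (adjusted p = 2.32e-15). Ccl25, the ligand of Ccr9, gave 17671 ± 2227 in cortex and 3321 ± 223 in medulla, with an interaction of -3.07 ± 0.15, although only 1 of its 2 probe sets pointed that way.

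Prss16 had the lowest interaction of the list (-5.45) and is described with the genes of opposite direction. The aminopeptidase Enpep, known as the Ly51 antigen, had an interaction of -2.69 ± 0.28, and Tbata, a protein of thymic epithelium, one of -2.96 ± 0.25, which was at -0.46 with plain-suffix probe sets. The endocytic receptor Ly75 (-1.77), the factor Pax1 (-1.64) and the Kit ligand Kitl (-1.44) were called lower too. As a mean over probe sets, the calls of Kitl (-0.74) and Pax1 (-0.88) were lost. The 2 members of the list called higher were the cytokine Il7 and the protease Ctsl. Il7 gave 1715 ± 286 in medulla and 733 ± 142 in cortex, with 25.04 ± 12.6 and 19.6 ± 15.1 on the sorted arrays, and an interaction of 1.39 ± 0.25. Ctsl was called lower in the medulla in both tissue (-1.52) and thymocytes (-2.91), with an interaction of 1.39 ± 0.18 that was at -0.64 with plain-suffix probe sets. Outside the lists, the methyltransferase Inmt (-3.82 ± 0.26) and Plekhb1 (-3.55 ± 0.30) had the largest values among tissue-side cortical genes beside Psmb11 and Cxcl12. Cpa3, a carboxypeptidase of mast cells and early progenitors, gave 428 ± 73.3 in cortex, 28.1 ± 14.03 in medulla, 357 ± 99.8 on sorted cortical and 283 ± 118 on sorted medullary arrays. Its interaction was -2.73 ± 0.30. Whole medulla was thus below all 3 other groups for Cpa3.

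**Figure D3:**
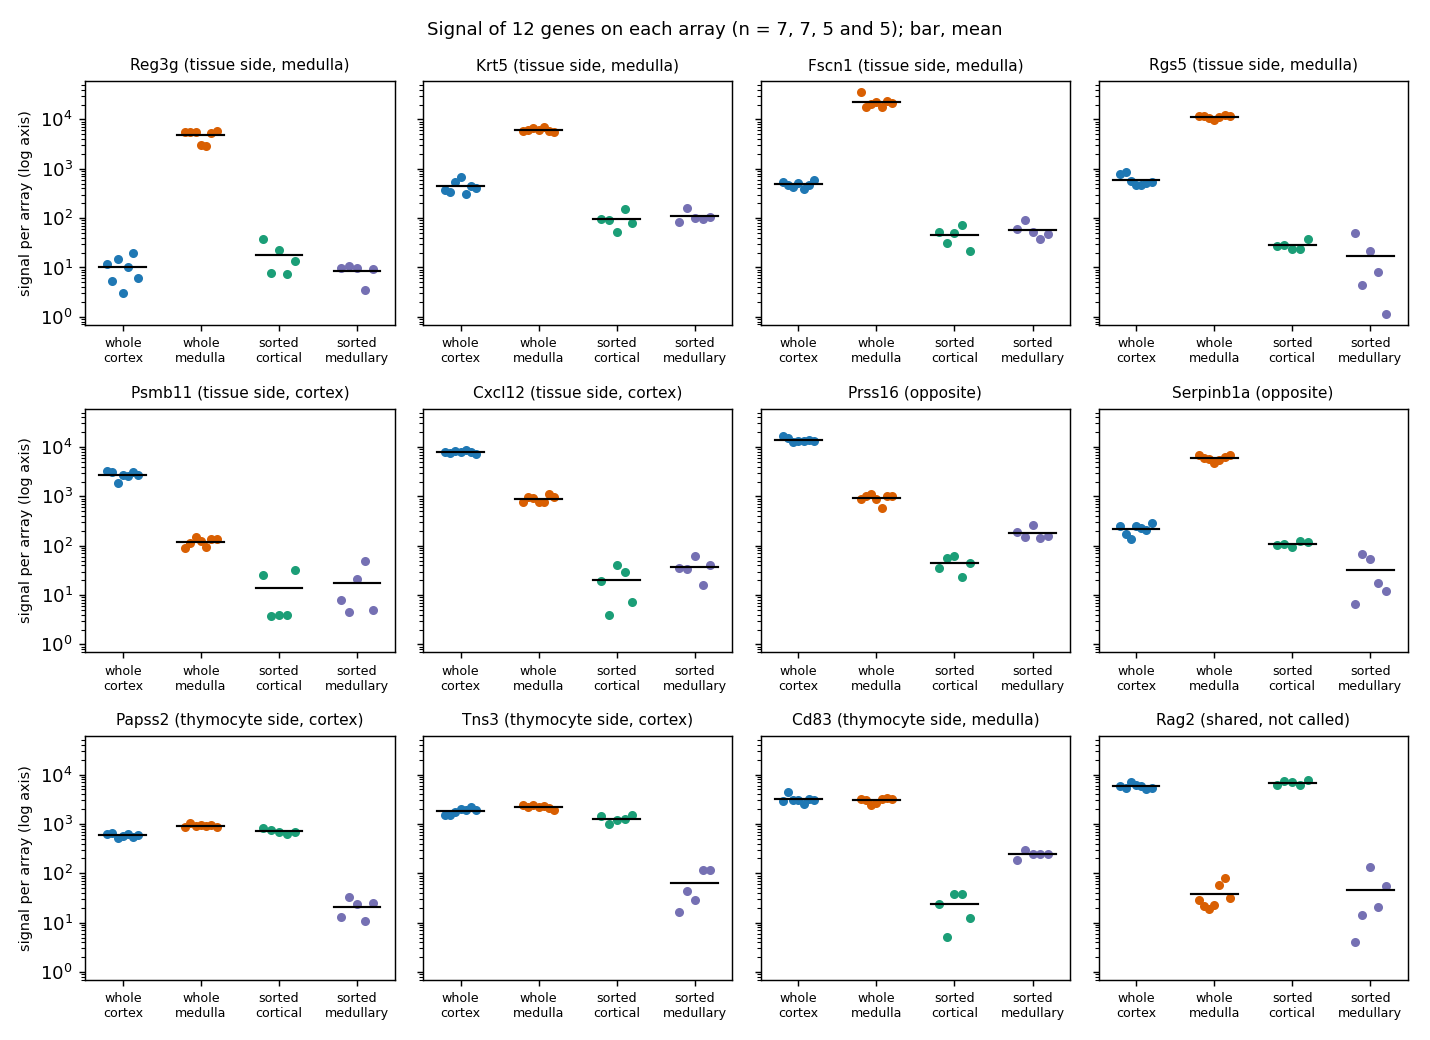
Signal on each array (points, log axis) of 12 genes in whole cortex (n = 7), whole medulla (n = 7), sorted cortical (n = 5) and sorted medullary thymocytes (n = 5), with the group mean as a bar. Reg3g, Krt5, Fscn1 and Rgs5 are high in medulla, Psmb11 and Cxcl12 in cortex, Papss2 and Tns3 are low in sorted medullary thymocytes alone, and Rag2 is low in both medullary groups.

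The reverse pattern was a thymocyte difference that tissue did not show. In 117 genes the sorted cortical cells were called higher, and the 2 tissue compartments differed by less than the limits above. Papss2, an enzyme that makes the sulfate donor of the cell, gave 839.6, 757, 677, 626 and 693 on sorted cortical arrays and 13.2, 33.1, 23.5, 10.7 and 25.3 on sorted medullary arrays. It lay from 516 to 663 (median 609) in whole cortex and from 852 to 1065 (median 893) in whole medulla. The sorted groups stood apart, and whole medulla was slightly above whole cortex with no overlap. The interaction was 4.61 ± 0.17 (adjusted p = 6.44e-21), made of -3.99 ± 0.13 in thymocytes and 0.62 ± 0.11 in tissue. Tns3, an adaptor of focal adhesions, gave 1449.7, 1005, 1198, 1252 and 1496 on sorted cortical and 16.1, 43.2, 28.5, 114 and 116 on sorted medullary arrays. In tissue it lay from 1506 to 2209.6 (median 1902) in cortex and from 1896 to 2478 (median 2229.8) in medulla. Only the sorted medullary group was low, and the interaction was 4.31 ± 0.27 (adjusted p = 1.07e-14). The semaphorin Sema7a (3.58), the transcriptional corepressor Cbfa2t3 (3.44) and the linker histone H1f2 (2.84) completed the 5 largest. H1f2 was at 0.44 with plain-suffix probe sets.

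Syk, Notch3 and Il2ra, of which Syk and Notch3 were chosen after their values were seen, were also in the pattern. Syk, a kinase that passes the pre-receptor signal, gave 669, 579, 611, 608 and 594 on sorted cortical and 130.1, 27.3, 88.3, 116 and 92.3 on sorted medullary arrays, and 627 ± 80.02 in cortex against 653 ± 94.4 in medulla. The sorted groups were apart and the tissue groups overlapped. Its interaction was 2.59 ± 0.22 (adjusted p = 3.77e-11). The receptor Notch3 had an interaction of 1.78 ± 0.28, and the interleukin-2 receptor chain Il2ra one of 1.30 ± 0.27. Rag1, Rag2 and Dntt, which immature thymocytes also use, were not in it. Notch3 is made by pericytes as well, and its signal in medulla was 560.1 ± 128. Il2ra, which regulatory T cells carry too, was not called without the arrays with a wide upper tail (0.71). In whole medulla the levels of Papss2, Tns3 and Syk lay above every sorted medullary array, and which cells held this RNA was not measured.

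The promoters of 3 leading members are shown for their CpG dinucleotides. The sequences are again the 100 bases before the RefSeq start on the gene's strand (GRCm38.p6), with CG in capitals. They are Tns3 at chr11:8664536-8664635 (minus strand), Sema7a at chr9:57940012-57940111 (plus strand) and the first of 2 listed starts of Papss2 at chr19:32595615-32595714 (plus strand).
Tns3: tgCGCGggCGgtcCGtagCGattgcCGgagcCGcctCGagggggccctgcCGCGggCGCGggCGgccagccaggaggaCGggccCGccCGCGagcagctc
Sema7a: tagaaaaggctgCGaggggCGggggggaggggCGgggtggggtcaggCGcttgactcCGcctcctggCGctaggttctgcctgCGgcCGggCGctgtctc
Papss2: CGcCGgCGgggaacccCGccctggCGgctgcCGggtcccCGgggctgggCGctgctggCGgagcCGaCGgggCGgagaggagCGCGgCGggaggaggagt
The stretch holds 17 CpG in Tns3, 9 in Sema7a and 15 in Papss2. Over the 300-base window, the median was 21 CpG in the 90 matched thymocyte-side cortical genes, 10 in the 767 tissue-side medullary genes and 17 in all 14452 matched genes. TATAAA between 50 and 10 bases before the start was in 0 of the 90, which allows a share of up to 3.33%. The share of all 14452 matched genes was 2.82%, below that limit, so the 2 shares cannot be told apart. Only the first listed start of a gene was read.

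**Figure D4:**
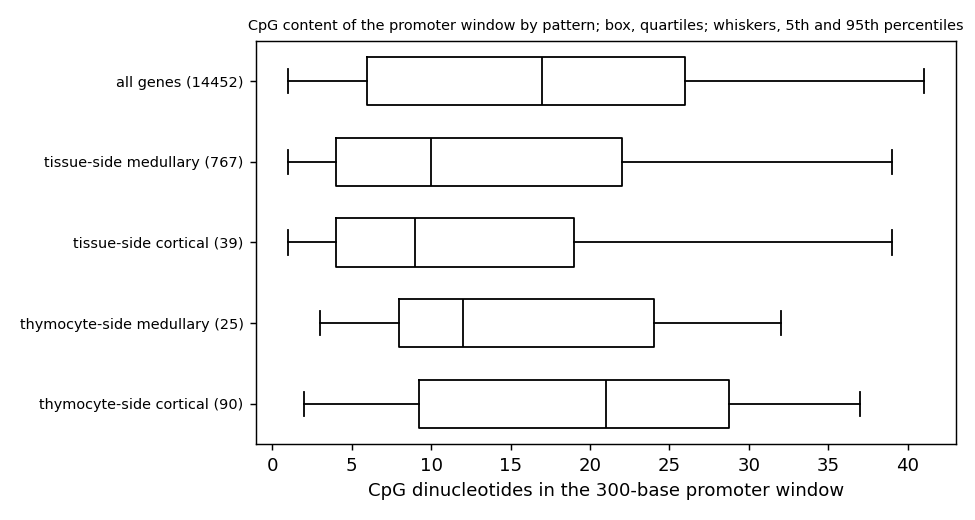
CpG dinucleotides in the 300-base promoter window (horizontal axis) by pattern, with quartiles as boxes, the median as a line and the 5th and 95th percentiles as whiskers; the number of matched genes is in brackets. The median is 10 for tissue-side medullary and 21 for thymocyte-side cortical genes.

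Fewer genes, 33, were called higher in sorted medullary thymocytes with a small tissue difference. Cd83, a stabiliser of surface MHC class II that cortical epithelium, dendritic cells and selected thymocytes carry, gave 185, 300.01, 245, 247 and 241 on sorted medullary and 23.8, 5.14, 38.7, 38.2 and 12.5 on sorted cortical arrays. In tissue it lay from 2539 to 4349 (median 3093) in cortex and from 2434 to 3293 (median 3152) in medulla. The tissue groups overlapped, stood above every sorted array, and the sorted groups were apart. Its interaction was -2.56 ± 0.20 (adjusted p = 3.55e-12). The factor Maf gave 739 ± 270.4 in sorted medullary and 111 ± 39.7 in sorted cortical cells, against 918 ± 135 in cortex and 923 ± 216 in medulla. The interaction of Maf was -2.46 ± 0.27, and -0.94 as a mean over its 6 probe sets, which is not called. The arginine sensor Castor1 (-2.18 ± 0.26) and the peptidase Pepd (-1.66 ± 0.21) were next among genes with a known role. Itm2a, which is induced in thymocytes during positive selection, had an interaction of -1.53 ± 0.21, but it is among the brightest signals and was at -0.97 after quantile normalization.

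In 30 genes tissue and thymocytes differed in opposite directions, and in 29 of them the medulla was higher in tissue while the cortical cells were higher among thymocytes. Serpinb1a, an inhibitor of granule proteases, lay from 4791 to 7022 (median 5962) in whole medulla and from 138 to 286 (median 226) in whole cortex. It gave 101, 109, 95.7, 127 and 121 on sorted cortical arrays and 6.57, 67.6, 53.5, 17.5 and 12.3 on sorted medullary arrays. Neither pair overlapped, and the interaction was 6.01 ± 0.27 (adjusted p = 1.55e-18). The adhesion molecule Mpzl2 had differences of 2.14 ± 0.22 in tissue and -3.02 ± 0.26 in thymocytes. The stress kinase Map3k20 had 1.13 ± 0.12 and -3.51 ± 0.15, Strip2 2.04 ± 0.17 and -2.04 ± 0.20, and the pericyte receptor Pdgfrb 1.74 ± 0.19 and -1.91 ± 0.22. Pdgfrb was called higher with the probe set used here, but not with plain-suffix probe sets (1.39). Prss16, the thymus-specific protease of cortical epithelium, was the 1 gene with the reverse order. It lay from 12676 to 16568 (median 13473) in whole cortex and from 591 to 1104 (median 1003) in whole medulla, and gave 36.1, 57.7, 61.2, 23.5 and 44.2 on sorted cortical and 191, 152, 263, 140.5 and 159.9 on sorted medullary arrays. Both pairs were free of overlap, and the interaction was -5.45 ± 0.20 (adjusted p = 6.44e-21). The sorted signals of Prss16 were a small part of the tissue signals, and the other cortical epithelial genes named above had thymocyte differences of 0.10 (Psmb11), 0.49 (Cxcl12) and 0.67 (Ccl25), none of them called.

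Of 22 measured genes of mature thymocytes 17 (77.3%) were called higher in medullary tissue and 18 (81.8%) in sorted medullary cells, against 15% and 5.78% of all genes. Ifngr1 was the 1 called lower in each. In 10 of the 22 the interaction was called lower, against 1.62% of all genes, and in the other 12 it was not called (median -0.89). Slfn1, a growth regulator of resting T cells, gave 4907, 5351, 3365, 4588 and 4832 on sorted medullary and 7.95, 1.91, 3.97, 5.04 and 2.93 on sorted cortical arrays. It lay from 1899 to 3157 (median 2853) in whole medulla and from 12.3 to 146 (median 95.6) in whole cortex. The order was the same in both pairs without overlap, with differences of 7.23 ± 0.25 and 4.65 ± 0.21 and an interaction of -2.58 ± 0.32 (adjusted p = 1.73e-07). Gimap4 (-2.45), a GTPase with close paralogs, Igfbp4 (-2.05), the exit receptor S1pr1 (-1.81), its regulator Klf2 (-1.76) and the chemokine receptor Ccr7 (-1.37) had the same shape. Cd7, a T cell surface protein, had an interaction of -2.76 ± 0.43. Whole medulla holds these thymocytes among other cells, and the share of RNA from each was not measured.

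Ctss, the protease that trims the invariant chain, had the lowest interaction of this pattern. It gave 6777, 7948, 8709, 6049 and 6781 on sorted medullary and 194, 134, 80.1, 143 and 138 on sorted cortical arrays, and lay from 13725 to 17412 (median 15668) in medulla and from 2014 to 3647 (median 2995) in cortex. Sorted cortical cells were far below the other 3 groups, and the interaction was -3.04 ± 0.18 (adjusted p = 5.24e-15). Among innate-like lymphocyte genes 6 of 14 were called lower, including the receptor chain Klrd1 (-2.11) and the granzyme Gzma (-2.89), and 1, the chemokine Ccl5, higher. Gzma was highest in cortex, at 6825 ± 1454, against 315 ± 60.4 in medulla, 4509.7 ± 672 in sorted cortical and 1691 ± 442 in sorted medullary cells. Ccl5 had a tissue difference of 6.05 ± 0.26, a thymocyte difference of 2.44 ± 0.31 and an interaction of 3.61 ± 0.40. The integrin chain Itgb8 (3.18), the granzyme B inhibitor Serpinb9 (2.46) and the factor Plagl1 (2.88) shared that shape, although Plagl1 was at 0.42 with plain-suffix probe sets. Ly6d was lower in the medulla in both kinds of sample, with -2.47 ± 0.18 in tissue and -5.25 ± 0.21 in thymocytes, and an interaction of 2.78 ± 0.27. The exonuclease Isg20, which interferon induces, was higher in sorted medullary cells (2.46 ± 0.11) and not called in tissue (-0.88 ± 0.09), and had an interaction of -3.35 ± 0.14. The formin Fmnl2, in no pattern, had -3.84 ± 0.19 in thymocytes and 0.91 ± 0.16 in tissue.

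Other lymphoid and shared lists had compartment differences in both kinds of sample, with few or some members called in the interaction. Rag2, a subunit of the recombinase, gave 6152, 7418, 6993, 6021 and 7689 on sorted cortical and 4.11, 14.2, 136, 20.96 and 56.4 on sorted medullary arrays, and lay from 5172 to 6976 (median 5949) in cortex and from 18.7 to 80.02 (median 28.8) in medulla. Both medullary groups were far below both cortical ones, and the interaction was 0.24 ± 0.34 (adjusted p = 0.737; 95% interval from -0.44 to 0.93). Rag1 had an interaction of -0.55 ± 0.46 (adjusted p = 0.523), which became -1.12 and called without the sorted medullary array 1. Of 30 measured cell cycle genes 26 (86.7%) were lower in medullary tissue and 20 (66.7%) in medullary thymocytes, against 3.99% and 4.61% of all genes. In the interaction 1 of the 30 was called lower (3.33%, against 1.62% of all genes), with a list median of -0.09. Of 17 interferon-response genes 14 (82.4%) were higher in medullary tissue and 16 (94.1%) in medullary thymocytes, against 15% and 5.78% of all genes. In the interaction 3 of the 17 were called lower, against 1.62% of all genes: Isg20, Ifit1 (-2.17) and Oasl2 (-1.16), the last at -0.86 after quantile normalization. Of 12 MHC class I genes 7 (58.3%) were higher in medullary tissue and 10 (83.3%) in medullary thymocytes, against the same shares of all genes. H2-K1 (-1.74) was the 1 called lower in the interaction, with -0.99 as a mean over probe sets. The class I activator Nlrc5 had 3.71 ± 0.10 in tissue and 4.44 ± 0.12 in thymocytes, and the factor Relb 3.42 ± 0.15 and 2.59 ± 0.17. The interaction of Relb was 0.83, and after quantile normalization 1.18, which is called. CD4+CD8+ thymocyte genes were called higher in 2 of 13, Ly6d and Plxnd1 (1.21; 0.72 and not called without the wide-tailed arrays), and lower in 2, Dntt (-1.30) and Cd8b1 (-1.88). T cell receptor signalling genes were called lower in 3 of 14 (21.4%), and regulatory T cell genes lower in 2 (22.2%) and higher in 1 (11.1%) of 9. Of all genes, 1.62% were called lower and 9.52% higher. The lower calls were those of Cd3d, Cd3g and Cd2 and of the regulatory genes Il2rb and Gpr83. All of them were lost after quantile normalization, with Cd2 at -0.83, Gpr83 at -0.86 and Il2rb at -1.08 (Cd3d and Cd3g are given below). The call of Cd2 was also lost without any 1 of 9 single arrays. Neutrophil genes were called higher in 2 (22.2%) and lower in 1 (11.1%) of 9, with a summed signal in cortex from 2801 to 25519.9. Fat-cell genes were called higher in 1 and lower in 1 of 6 (16.7% each). The neutrophil calls did not hold throughout: S100a8 was lost in 4, Lcn2 in 3 and Elane in 2 alternative settings, and leaving out 1 array ended these calls for 1, 8 and 6 of the 24 arrays. Car3, the fat-cell gene called lower, was lost in 5 alternative settings and without 1 single array. The erythroid genes and the 4 genes of the sex chromosomes stayed within -0.31 (Xist) and 0.49 (Slc4a1), none called.

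Lower interactions of the brightest genes were seen beside the compressed upper end of the sorted cortical arrays. The 43 genes with a mean above 20000 in all 4 groups had a median interaction of -0.98, and 19 of them were called lower. Actb, which codes for actin and serves as a reference, had an interaction of -0.97 ± 0.29, and 0.087 after quantile normalization. The same setting took the translation factor Eef1a1 from -1.02 to 0.080, the ribosomal gene Rplp0 from -1.19 to -0.15, and the replication clamp Pcna from -1.33 to -0.27. It took Cd3d from -1.09 to -0.22, Cd3g from -1.002 to -0.49, Dntt from -1.30 to -0.52 and Cd8b1 from -1.88 to -0.96, and each call among these 7 genes was lost. Without any 1 of 12 single arrays the call of Cd3g was lost as well, and that of Eef1a1 without any 1 of 10. Slfn1 was at -2.37, Ctss at -2.93 and Prss16 at -4.94 in that setting, and these calls were kept. After quantile normalization 80.7% of called genes were higher, against 85.5% before it, and the median interaction over all genes was -0.06 in place of 0.02.

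The cortical subregions gave a readout that the interaction did not use, with the limit that their Xist signal goes against the label. Of all 18193 genes 350 (1.92%) were called higher in peri-medullary than in sub-capsular cortex and 205 (1.13%) lower, with 3 arrays in each group. Among the 71 medullary genes with the larger difference in thymocytes 42 (59.2%) were called higher. Among tissue-side medullary genes 69 (6.69%) were called higher and 10 (0.969%) lower, and among tissue-side cortical genes 9 (17.0%) were called lower. Thymocyte-side cortical genes were called lower in 6 (5.13%). Single members differed: Fscn1 was higher in peri-medullary cortex (1987 ± 252 against 369 ± 26.2, n = 3 each; log2 difference 2.34 ± 0.23), as were Csn2 (2.43 ± 0.40), the B cell gene Ms4a1 (3.31 ± 0.29) and Postn (2.17 ± 0.26). Reg3g was not called there (0.06 ± 0.32), nor were Krt5 (0.83 ± 0.23) and Rgs5 (-0.02 ± 0.24). Postn went against most of its list: of 16 fibroblast and matrix genes it was the 1 called higher, and 4 were called lower. Only 2 of the 16 pointed toward peri-medullary cortex (median -0.56). On the cortical side Psmb11 was higher in sub-capsular cortex (-1.07 ± 0.27) and so was Cd163 (-1.90 ± 0.43), whereas Prss16 (0.03 ± 0.19), Cxcl12 (-0.28 ± 0.21) and Ccl25 (-0.01 ± 0.14) were not called. Cd163 was an exception in the macrophage list, where 17 of 18 genes pointed toward peri-medullary cortex (median 0.76). Of these 18 genes 6 were called higher there, and Cd163 was the 1 called lower.

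**Figure D5:**
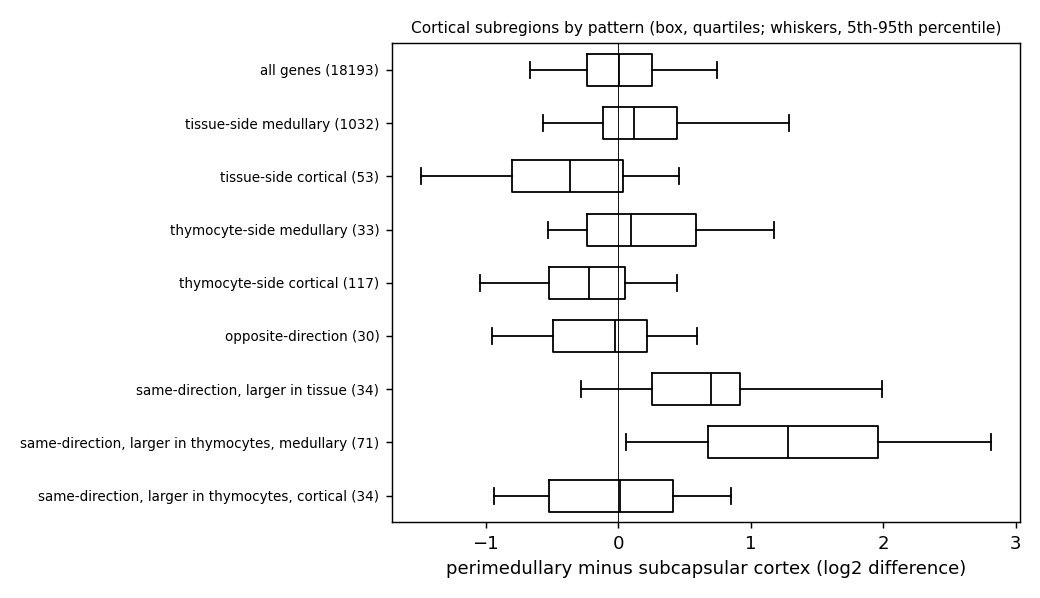
Log2 difference between peri-medullary and sub-capsular cortex (horizontal axis; 3 arrays each) by pattern, with quartiles as boxes, the median as a line and the 5th and 95th percentiles as whiskers; the number of genes is in brackets. Medullary genes with the larger thymocyte difference lie farthest to the right (median 1.28), and tissue-side cortical genes farthest to the left (-0.36).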

How the data were processed

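The authors' deposited values are linear array signals (intensity), 1 value per probe set and array; the submitters' processing notes name Affymetrix Expression Console 1.0 and MAS5, and no further step is given in the sources used here. RNA was primed with oligo-dT and labelled as biotin cRNA, per the labels' protocols. Groups follow the array titles.

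Signals were moved to log2(signal + 26.2), where the offset is the 25th percentile of an array, as a median of all arrays, so differences of weak genes are understated. All 45037 probe sets of 33 arrays were fitted with 7 group means in limma 3.58.1 (R 4.3.3; empirical Bayes with trend, 26 residual degrees of freedom), with Benjamini-Hochberg adjustment over all probe sets and no filter. The script was tested on simulated data. Of the probe sets 34945 had 1 gene symbol, 932 several and 9160 none; a gene was taken as its probe set with the highest mean log2 signal over the 24 arrays, giving 18193 genes. The number of arrays limits the precision.

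Named genes are the 8 largest interactions each way, the 5 largest of each pattern, up to 3 called members of each list by size, and 6 markers; 35 more were chosen after their values were seen, and further list members are named from the list's table. Members and lists were chosen with earlier results of these data known. Promoters are RefSeq's (GRCm38.p6), matched by symbol for 14452 genes. The alternatives were a smaller offset, quantile normalization, filters on weak signal, other probe sets per gene, other sets of arrays, array weights, a replicate block and leaving out each array.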

Additional observations from a re-analysis of the deposited data

Results flagged for a closer look

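Values of 151 genes were examined in each of the 4 groups, and 44 of 604 group sets held 1 array that stood apart by Dixon's ratio (above 0.71 for 5 arrays or 0.568 for 7). Chance gives about 1 in 20. Many of them are weak signals, where the order of arrays says little. Reg3g gave 3.48 on sorted medullary array 4, against 9.51 to 10.6 on the other 4. Csn2 gave 32.7 on sorted medullary array 1, against 4.74 to 8.89 on the other 4. Ptgs2 gave 11.6 on sorted medullary array 2, against 1.48 to 2.09 on the other 4. Prss16 gave 591 on whole medulla array 5, against 866 to 1104 on the other 6. Cbfa2t3 gave 1344 on sorted cortical array 5, against 1021 to 1068 on the other 4. Strip2 gave 88.2 on whole cortex array 5, against 159 to 224 on the other 6. Cd7 gave 39.4 on sorted cortical array 2, against 12.6 to 15.5 on the other 4. Slfn1 gave 12.3 on whole cortex array 5, against 69.6 to 146 on the other 6. Alox15 gave 1224 on whole medulla array 5, against 904 to 996 on the other 6. Fmnl2 gave 2030.1 on whole cortex array 3, against 1168 to 1476 on the other 6. Spib gave 7.14 on sorted medullary array 5, against 54.9 to 87.0 on the other 4. Krt14 gave 2196 on whole medulla array 3, against 2835 to 3382 on the other 6. Krt14 gave 59.5 on sorted cortical array 5, against 6.32 to 13.7 on the other 4. Epcam gave 104 on sorted cortical array 2, against 159.7 to 174 on the other 4. Cdh1 gave 6099 on whole medulla array 6, against 4972 to 5367 on the other 6. Dmkn gave 3.25 on sorted medullary array 5, against 7.09 to 8.12 on the other 4. Avil gave 335 on whole medulla array 1, against 497 to 612 on the other 6. Apoa1 gave 3.23 on sorted medullary array 5, against 37.1 to 56.9 on the other 4. Nts gave 16.3 on sorted cortical array 1, against 2.95 to 5.06 on the other 4. Myog gave 31.9 on whole cortex array 7, against 5.55 to 12.2 on the other 6. Myog gave 46.3 on sorted medullary array 2, against 3.64 to 8.19 on the other 4. Fscn1 gave 35781 on whole medulla array 1, against 17606 to 23169 on the other 6. Slc40a1 gave 31.8 on sorted cortical array 4, against 4.05 to 7.48 on the other 4. Ms4a1 gave 94.8 on sorted medullary array 2, against 48.4 to 57.8 on the other 4.

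Lcn2 gave 688 on whole medulla array 7, against 359 to 454 on the other 6. Vwf gave 36.7 on sorted medullary array 1, against 1.78 to 8.29 on the other 4. Plvap gave 37.8 on whole cortex array 7, against 123 to 235 on the other 6. Tagln gave 8.07 on whole cortex array 5, against 55.0 to 124 on the other 6. Mgp gave 2.33 on sorted cortical array 2, against 35.7 to 49.4 on the other 4. H2-Ab1 gave 271 on sorted cortical array 4, against 145 to 174 on the other 4. Cxcl9 gave 8.07 on sorted medullary array 1, against 5.77 to 6.28 on the other 4. Icosl gave 496 on whole medulla array 1, against 888 to 1110.4 on the other 6. Oasl2 gave 851 on sorted medullary array 3, against 1236 to 1340.2 on the other 4. Dntt gave 1192 on whole medulla array 3, against 468 to 690.2 on the other 6. Klrd1 gave 864 on sorted medullary array 1, against 1616 to 1797 on the other 4. Syk gave 853 on whole medulla array 1, against 565 to 675 on the other 6. Klf2 gave 4833 on sorted medullary array 3, against 7596 to 8815 on the other 4. C1qa gave 8.85 on sorted medullary array 2, against 3.99 to 4.91 on the other 4. Rag1 gave 127 on sorted medullary array 1, against 855 to 1599 on the other 4. Krt18 gave 43.8 on sorted cortical array 5, against 91.0 to 100.4 on the other 4. Ccl17 gave 8.57 on sorted cortical array 4, against 4.27 to 5.40 on the other 4. Ccl17 gave 42.4 on sorted medullary array 5, against 5.92 to 7.85 on the other 4. Spic gave 108 on whole cortex array 3, against 209 to 306 on the other 6. C1qb gave 1233 on whole cortex array 3, against 1783 to 2233 on the other 6.

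The compartment difference was not the same in tissue and in thymocytes for 1732 genes with a higher and 294 with a lower value in tissue (limma, adjusted p below 0.05 and an absolute log2 difference of at least 1). The pattern of opposite direction asks for a called interaction, so the interactions of its genes are no separate test. The 5 largest in size were 6.01 for Serpinb1a, 5.16 for Mpzl2, 4.63 for Map3k20, 4.08 for Strip2 and -5.45 for Prss16. Outside the 24 arrays compared, the lowest Xist signal among the 9 cortical subregion arrays was 9195, against 22.1 to 231 on the 24.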

How the results depend on the processing

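The main counts were 1732 genes higher and 294 lower in the interaction, 1032 tissue-side medullary, 53 tissue-side cortical, 33 thymocyte-side medullary, 117 thymocyte-side cortical and 30 of opposite direction. Under the stricter filter on weak signal (9046 genes tested, so fewer could be counted) there were 876 higher, 490 tissue-side medullary and 21 thymocyte-side medullary genes. With 0.25 of the offset there were 334 tissue-side medullary, 30 tissue-side cortical and 56 opposite-direction genes. The tissue-side cortical count was 87 after quantile normalization and 97 when wide-tailed arrays were left out, and the tissue-side medullary count was 677 with wide-tailed tissue arrays and the other sorted arrays. The cause of these last shifts was not tested. Leaving out 1 array at a time gave 1659 to 1805 higher and 264 to 367 lower genes, 911 to 1070 tissue-side medullary, 43 to 77 tissue-side cortical, 27 to 45 thymocyte-side medullary, 104 to 122 thymocyte-side cortical and 28 to 33 opposite-direction genes. Same-numbered arrays of different groups deviated together little or not at all (correlation of deviations -0.08 to 0.18 over 32 pairs, 2 of them over 0.1). Both pairs over 0.1 were whole cortex with whole medulla, arrays 6 (0.16) and 7 (0.18), the tissue arrays without a wide upper tail. A pairing by number was thus neither shown nor excluded. With the replicate number as a random block, 1743 genes were higher and 296 lower. The sign turned after quantile normalization for Actb (0.087), Eef1a1 (0.080), Krt18 (0.095), Ptprc (0.25) and Rag1 (0.36). It turned with plain-suffix probe sets for Acta2 (-0.90), Ctsl (-0.64), Ptprc (0.41) and Ttn (-0.086). Without the wide-tailed arrays Rag1 was at 0.32, and with wide-tailed tissue and other sorted arrays Rag2 was at -0.022. Leaving out 1 array gave -0.0326 to 0.33 for Krt8 and -0.0027 to 0.60 for Rag2, both lowest without sorted medullary array 1, and Krt8 was at -0.017 without sorted cortical array 3. Signals near the weak end of an array limit what can be said of thymocyte levels of stromal genes.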
